A study of Mus musculus with 22 samples.

Results

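The 9 genes described here make or control the channels and pumps by which the colon epithelium takes up sodium and secretes chloride, or, as Ano7, are related to them. They are Scnn1a, Scnn1b, Scnn1g, Cftr, Ano1, Ano7, Best2, Atp12a and Nr3c2. They were chosen by name, for what their products do, though with earlier results of these data known. They are 9 of the 24421 genes counted in every library. All 9 passed the filter on low counts and averaged 50 normalized counts or more across the 22 libraries. By their means, Cftr was highest in Stem and AbsPro, Scnn1a and Best2 in SecPDG, Ano7 in Tuft and SecPDG, and Scnn1g and Atp12a in Enterocyte. Of these, Scnn1a and Scnn1g were not called above the next cell type.

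RNA was sequenced from cells sorted out of the colon crypts of wild-type male C57BL/6N mice, 5 to 7 weeks old, with no treatment. The live cells carried Epcam and lacked Cd31 and Cd45, and 6 cell types were then told apart by their surface Cd44, Cd24 and Ckit. Stem (3 libraries) had the highest Cd44, low Cd24 and no Ckit, and AbsPro, the absorptive progenitors (3 libraries), had medium to high Cd44, low Cd24 and no Ckit. SecPDG (4 libraries) had high Cd44 with medium Cd24 and Ckit, and is a mixed gate of secretory progenitors, deep crypt secretory cells and goblet cells. Tuft (5 libraries) was positive for Ckit with high Cd24, while Enterocyte (5 libraries) and EEC, the enteroendocrine cells (2 libraries), had low or no Cd44 and differed by Cd24, absent in the first and present in the second. These gates follow the labels, while the study's text gives medium Cd44 for AbsPro and SecPDG alike. The libraries came from separate mice and sorts, and all but those of Stem and AbsPro pool several mice.

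In the distal colon, sodium enters surface cells through the epithelial sodium channel, an apical channel built of an alpha, a beta and a gamma subunit. Aldosterone drives this uptake through the mineralocorticoid receptor. Chloride moves the other way in the crypt: it is loaded at the basolateral side, and leaves the cell through Cftr, which opens with cyclic AMP, or through channels that open with calcium, while potassium is taken back at the surface by a proton and potassium pump.

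The levels are normalized counts, which are reads on a gene scaled by the effective library size (TMM) to the mean library. A difference was called at an adjusted p under 0.01 (edgeR quasi-likelihood test, Benjamini-Hochberg over 22781 genes) with a mean no lower than 50 normalized counts. Differences are given as log2 fold changes ± SE unless a sentence names a fold, and the value after each is its edgeR adjusted p. Alternatives named beside a result are DESeq2's size factors or library totals in place of TMM, the DESeq2 test, the earlier quasi-likelihood method of edgeR 3, a fit of only the 2 cell types compared, the replicate number as a block, and leaving out a library. Counts on genes were 15314543 to 22462518 per library in Stem, AbsPro and SecPDG, 9930648 to 20892532 in Tuft, 5950619 to 12966128 in Enterocyte, and 4122122 and 13132315 in EEC. Of the reads on genes or outside them, leaving out the other entries that name no gene, 41.3% to 49.8% lay outside in the first 3 cell types. This share reached 68.4% in Tuft, 83.3% in Enterocyte and 89.9% in EEC 1. Reads on 1484 receptor and hair keratin genes that the colon is not known to use served as a background estimate, which was at or over 20% of a member's level in 1 of its 54 mean levels, Atp12a in SecPDG (22.7%). In single libraries it went higher, to 119% of Atp12a in SecPDG 3 and 394% of Scnn1g in EEC 2, each on 1 read. The Lgr5 level was 2006 to 3197 in Stem against at most 1651 elsewhere. Summed tuft markers were 22867 to 61831 in Tuft against at most 7426 elsewhere, and summed enteroendocrine markers 596968 and 1714880 in EEC against at most 27694. Of the enterocyte markers, Car4 was 3491 to 6591 in Enterocyte against at most 1927 in any other library, and Aqp8 883 to 1395 against at most 133 in AbsPro, though 1 EEC library reached 2239. Krt20 was higher in EEC (16893 and 43395) than in Enterocyte (8049 to 12342). Guca2a was higher in SecPDG (9461 to 16189) than in Enterocyte (3273 to 7440). Slc26a3 (3059 to 4939 in Enterocyte) reached 3490 in AbsPro and 4439 in 1 EEC library. The sum of the 6 enterocyte markers, mostly Car1 in Enterocyte and AbsPro, was 50311 to 75192 in Enterocyte, 67215 to 102747 in AbsPro and 22047 and 135168 in EEC. The goblet markers summed to 720549 to 1095410 in Tuft and 726303 to 3071540 in SecPDG, and to 236045 to 692557 in Enterocyte. The Tuft sum was mostly Muc2. Fcgbp, Tff3, Zg16 and Spdef were lower in every Tuft library than in any SecPDG library. Muc2, Agr2, Retnlb and Clca1 overlapped between these 2 cell types.

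Promoters are shown for Scnn1g and Scnn1b, 2 subunit genes of 1 channel that lie 96562 bases apart on the same strand of chromosome 7 and differed in their levels, and for Cftr and Ano7, whose levels ran in opposite directions from Stem to Tuft. Each is 250 bases before to 50 after the start of the gene, 5′ to 3′ on the plus strand, from RefSeq on GRCm38.p6, with CG dinucleotides in capitals. The windows are chr7:121734229-121734528 for Scnn1g, chr7:121864788-121865087 for Scnn1b, chr6:18170437-18170736 for Cftr and chr1:93373646-93373945 for Ano7.
Scnn1g: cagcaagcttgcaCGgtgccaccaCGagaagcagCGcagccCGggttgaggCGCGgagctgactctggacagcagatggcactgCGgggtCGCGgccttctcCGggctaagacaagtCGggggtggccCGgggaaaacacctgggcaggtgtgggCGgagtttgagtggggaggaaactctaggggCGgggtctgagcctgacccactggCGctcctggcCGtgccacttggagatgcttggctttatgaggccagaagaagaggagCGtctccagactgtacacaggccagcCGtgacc
Scnn1b: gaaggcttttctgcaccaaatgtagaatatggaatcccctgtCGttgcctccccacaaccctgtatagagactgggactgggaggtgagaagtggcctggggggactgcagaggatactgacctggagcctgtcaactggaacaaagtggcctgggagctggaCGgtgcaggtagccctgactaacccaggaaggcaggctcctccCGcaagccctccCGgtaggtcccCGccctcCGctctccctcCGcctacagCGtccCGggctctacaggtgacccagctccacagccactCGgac
Cftr: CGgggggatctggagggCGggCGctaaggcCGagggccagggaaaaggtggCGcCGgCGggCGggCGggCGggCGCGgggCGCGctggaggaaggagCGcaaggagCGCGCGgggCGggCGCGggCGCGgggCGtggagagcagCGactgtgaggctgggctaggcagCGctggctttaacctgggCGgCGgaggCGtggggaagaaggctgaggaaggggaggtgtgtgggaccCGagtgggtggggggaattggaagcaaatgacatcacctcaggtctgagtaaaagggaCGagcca
Ano7: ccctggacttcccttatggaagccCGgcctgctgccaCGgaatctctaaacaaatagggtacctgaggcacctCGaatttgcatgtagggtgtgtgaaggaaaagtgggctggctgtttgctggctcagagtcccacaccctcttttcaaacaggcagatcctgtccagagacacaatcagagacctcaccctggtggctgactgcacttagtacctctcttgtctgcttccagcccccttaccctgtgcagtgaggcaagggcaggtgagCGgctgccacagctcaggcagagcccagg
The Cftr window held 31 CG dinucleotides and was 71.3% G and C, Scnn1g held 18 (64.7%), Scnn1b 10 (61.7%) and Ano7 4 (56.7%). Over 32851 promoters the median was 7, with quartiles of 3 and 20, so that Cftr lay above the upper quartile and Ano7 below the median. Among the other members, Ano1 (18) and Nr3c2 (17) were matched. On both strands, the steroid receptor element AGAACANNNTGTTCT and the shorter TGTTCT, which lies within it, were found in none of the 6 windows. The first is in 0.00913% and the second in 19% of all promoters, and no match says only that these letters are not in this window.

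Against Stem, most of these genes were higher in the other cell types and Cftr was lower. In AbsPro, 1 of the 9 rose and none fell, where 0.588% of all genes tested were called. In SecPDG 6 rose and 1 fell (4.98% of all genes called), and in Tuft likewise 6 rose and 1 fell (12.1%). All 9 were called in Enterocyte, 8 higher and 1 lower (22.2%), and 5 in EEC, 4 higher and 1 lower (19.9%). Here and below, the shares are of all genes tested, with those under the minimum mean, which cannot be called. All 9 members reach that minimum, so the shares are too low as a baseline for them. Shares among only the genes over the minimum were not computed. The median log2 fold change of the 9 was 1.37 in AbsPro, 2.76 in SecPDG, 2.80 in Tuft, 3.36 in Enterocyte and 2.08 in EEC, against 0.04, -0.06, -0.09, -0.30 and -0.30 over all genes tested. These 5 comparisons share the 3 Stem libraries. Markers of cells that the sort should remove also had higher summed levels in Tuft, Enterocyte and EEC than in Stem, with some overlap of Tuft and Stem in the stromal and muscle markers. Summed immune markers were 145 to 160.4 in Stem, 1364 to 3419 in Tuft, mostly Ptprc, 356 to 877 in Enterocyte, and 555 and 1857 in EEC. The stromal sum was 35.7 to 192 in Stem against 109 to 603 in Tuft, 412 to 1178 in Enterocyte and 288 and 2072 in EEC. Endothelial markers summed to 9.6 to 18.2 in Stem against 87.8 to 498, 297 to 669 and 780.2 and 1396, and muscle markers to 16.004 to 84.1 against 71.1 to 498, 282 to 889.6 and 108 and 1772. All 7 immune, 6 stromal, 4 endothelial and 4 muscle markers had a higher mean in Enterocyte than in Stem, as had all but 1 stromal marker in Tuft and all but 1 immune marker in EEC. In SecPDG these sums were at most 128, 107, 73.4 and 63.4. In AbsPro they were at most 220, 1232, 62.8 and 65.9, the stromal 1232 in AbsPro 3 against 55.8 in AbsPro 1 and 29.3 in AbsPro 2. The part of such cells in the members' levels was not tested. In bulk libraries such as these, fewer cells that use a gene and less of its RNA per cell cannot be told apart.

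**Figure D1:**
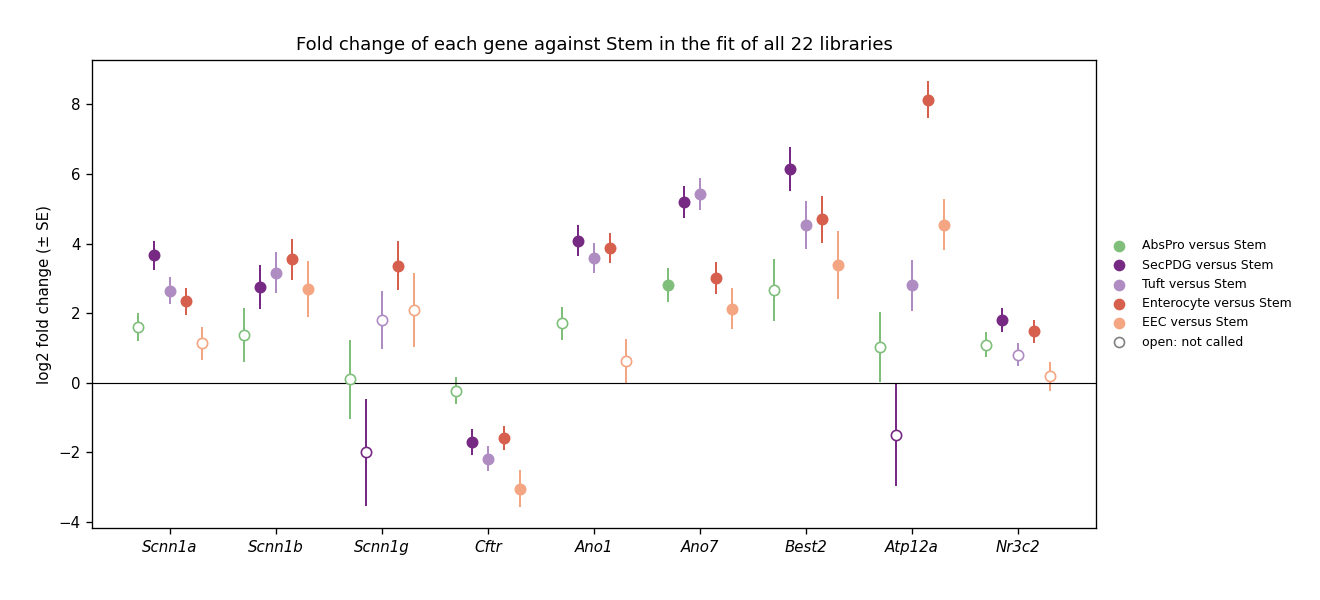
Log2 fold change of each of the 9 genes (x axis) against Stem, with its SE (vertical lines), in AbsPro, SecPDG, Tuft, Enterocyte and EEC (colours), from the edgeR fit of all 22 libraries. Filled points are called and open points are not. Cftr lies below 0 in all 5 comparisons, and Atp12a in Enterocyte is the highest point at 8.13.

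Between the other cell types, 2 to 6 of the 9 were called. SecPDG against AbsPro had 4 members higher and 1 lower (3.72% of all genes called), and Tuft against AbsPro likewise 4 and 1 (8.13%). Enterocyte against AbsPro had 5 higher and 1 lower (16.2%), and EEC against AbsPro 1 and 1 (18.3%). Tuft against SecPDG had 1 higher and 1 lower (3.36%), Enterocyte against SecPDG 2 and 3 (23.4%), and EEC against SecPDG 1 and 5 (21.3%). Enterocyte against Tuft had 1 and 1 (8.44%), EEC against Tuft 3 lower (9.29%) and EEC against Enterocyte 2 lower (4.7%). Scaling by DESeq2 size factors or by library totals changed the balance of calls over all genes in the comparisons with many of them. In Enterocyte against Stem 48.3% of the called genes were higher with TMM, 75.6% with size factors and 70.9% with totals, and the median over all genes was -0.30, 0.35 and 0.24. The shares were 54.2%, 77.3% and 63.7% in EEC against Stem, 50.7%, 83.5% and 80.1% in Enterocyte against AbsPro, 52.5%, 74.6% and 71.4% in EEC against SecPDG, 67.9%, 67.3% and 44.1% in SecPDG against Stem, and 53.7%, 57.6% and 40.4% in SecPDG against AbsPro. No called member changed direction under either scaling.

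Scnn1a, the alpha subunit of the sodium channel (chromosome 6:125320659-125344943, plus strand), was lowest in Stem and highest in SecPDG. Its normalized counts were 508, 382 and 355 in Stem, 1262, 985 and 1547 in AbsPro and 4329, 8103, 4086 and 4443 in SecPDG. They were 2286, 3080.4, 2486, 2122 and 2940.3 in Tuft, 1802, 1619, 2254, 2391 and 2384 in Enterocyte, and 192 and 1542 in EEC 1 and EEC 2. Every AbsPro, SecPDG, Tuft and Enterocyte library lay above every Stem library, while the EEC libraries lay on either side of Stem. Against Stem, Scnn1a rose by a log2 fold change of 3.66 ± 0.41 in SecPDG (edgeR adjusted p = 6.04e-10), 2.64 ± 0.39 in Tuft (4.7e-07) and 2.34 ± 0.39 in Enterocyte (3.29e-06). In AbsPro the difference was 1.61 ± 0.41 with an edgeR adjusted p of 0.0231, and in EEC 1.13 ± 0.46 with 0.0396, neither called. AbsPro was called with size factors, library totals, the replicate block or only the 2 cell types and by DESeq2, with log2 fold changes of 1.55 to 1.62 and adjusted p of 0.000333 to 0.00801. EEC was called with size factors (1.63, edgeR adjusted p = 0.000538), with library totals (1.31, 0.00232) and by DESeq2 (1.47, 0.000859). Without EEC 1 the EEC difference was 1.73 (edgeR adjusted p = 0.000172), which is a call. SecPDG was above AbsPro by 2.05 ± 0.37 (edgeR adjusted p = 6.4e-05). It was 2.5-fold higher than Enterocyte (edgeR adjusted p = 0.000424), a difference that shrank to a log2 fold change of -0.58 (Enterocyte less SecPDG, 0.0195) with library totals and to -0.74 (0.0206) by DESeq2. SecPDG against Tuft, its neighbour in the order of levels, was not called (edgeR adjusted p = 0.0212), but was called with no low-count filter, the replicate block or only the 2 cell types (0.000848 to 0.00886). Enterocyte against AbsPro, another pair of neighbours, was 0.73 ± 0.35 (edgeR adjusted p = 0.069), not a call. It was 1.07 to 1.34 and called with size factors, library totals, the background estimate taken off or only the 2 cell types and by DESeq2, with adjusted p of 0.000204 to 0.00544. With all libraries, Enterocyte against Tuft and AbsPro against EEC were not called under any setting. SecPDG 2, the highest library, also had the highest sum of goblet markers (3071540), and the part of goblet cells in the level was not tested.

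Scnn1b, the beta subunit (chromosome 7:121865038-121918514, plus strand), was highest in Enterocyte and Tuft, at a fraction of the level of Scnn1a. The normalized counts were 0, 32.6 and 28.3 in Stem, 42.4, 57.7 and 68.5 in AbsPro and 26.5, 154, 209.8 and 185 in SecPDG. They were 247, 212, 115, 151 and 227 in Tuft, 238, 271, 259.9, 252 and 222 in Enterocyte, and 239 and 64.3 in EEC. All Tuft and Enterocyte libraries lay above all of Stem and AbsPro, and SecPDG 1 lay inside the range of Stem. It rose against Stem in SecPDG (2.76 ± 0.63, edgeR adjusted p = 0.0017), in Tuft (3.17 ± 0.59, 5.77e-05), in Enterocyte (3.55 ± 0.58, 2.79e-06) and in EEC (2.70 ± 0.80, 0.00471). AbsPro, at 1.37 ± 0.77, was not called (edgeR adjusted p = 0.662). The call in SecPDG was lost with library totals (2.52, edgeR adjusted p = 0.0114), by the edgeR 3 method (0.0291), and without Stem 1 (2.24, edgeR adjusted p = 0.0244) or SecPDG 3 (2.48, 0.0169). The call in EEC was lost by the edgeR 3 method (adjusted p = 0.0107), with only the 2 cell types (0.0853), and without Stem 1 (2.18, edgeR adjusted p = 0.0215), Stem 3 (2.83, 0.0121) or EEC 1 (1.43, 0.364). Enterocyte was also above AbsPro by 2.17 ± 0.50 (edgeR adjusted p = 0.00072), which was lost by the edgeR 3 method (0.0287) and without AbsPro 1 (1.78, 0.0158). Tuft against AbsPro was at the edge of the threshold (1.79 ± 0.51, edgeR adjusted p = 0.00977), and this call was lost without any 1 of AbsPro 1, 2 and 3 or Tuft 1, 2, 4 and 5, with adjusted p of 0.0127 to 0.0784. It was lost also with library totals, with no low-count filter, by the edgeR 3 method and by DESeq2 (adjusted p of 0.0101 to 0.084). No neighbours in the order of Scnn1b levels differed by a call.

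Scnn1g, the gamma subunit (chromosome 7:121734479-121768475, plus strand), was the scarcest of the 3 and had its highest mean in Enterocyte. It had 57.4, 0 and 2.02 normalized counts in Stem, 4.95, 0 and 60.02 in AbsPro and 0, 8.7, 2.53 and 7.83 in SecPDG. The levels were 64.7, 92.1, 78.4, 80.5 and 19.2 in Tuft, 183, 236, 270.3, 116 and 123 in Enterocyte, and 183 and 1.21 in EEC, and the reads behind the Enterocyte values were 89 to 234. Enterocyte did not overlap Stem, AbsPro, SecPDG or Tuft, and 1 library each of Stem and AbsPro stood at the level of Tuft. Enterocyte was above Stem by 3.36 ± 0.70 (edgeR adjusted p = 0.000104), above AbsPro by 3.27 ± 0.72 (0.000431) and above SecPDG by 5.36 ± 0.92 (5.08e-06). Its differences from Tuft (1.55 ± 0.52, edgeR adjusted p = 0.0312) and EEC (1.28 ± 0.74, 0.299) were not called, and EEC 1 lay inside the Enterocyte range. Stem 1 held 75 reads on Scnn1g and the other 2 Stem libraries 0 and 3, so the difference from Stem depends on Stem 1: without it the fitted value was 7.40, and without Stem 2 or Stem 3 it was 2.59 or 2.64, all called. The difference from AbsPro was likewise 5.87 without AbsPro 3 and 2.68 without AbsPro 2. Without AbsPro 1 the difference from AbsPro was 2.55 with an edgeR adjusted p of 0.0157, and the edgeR 3 method gave an adjusted p of 0.0671 against Stem and 0.0851 against AbsPro. By DESeq2 the adjusted p against AbsPro was 0.0105. The difference of Tuft from Stem, 1.81 ± 0.83 (edgeR adjusted p = 0.0819), was not called with all libraries, and was 5.85 (0.00873) without Stem 1. EEC against Stem (2.08 ± 1.07, edgeR adjusted p = 0.0995) was likewise 6.12 (0.00674) without Stem 1 and 3.32 (0.00408) without EEC 2. Tuft was above SecPDG by 3.81 ± 1.15 (edgeR adjusted p = 0.0227), not a call, and by 4.12 (0.00688) without Tuft 5, and was called also with the replicate block (0.00702) and by DESeq2 (0.00819). The background estimate was 18.5% of the Scnn1g level in SecPDG, 18.2% in EEC and 10.4% in Tuft.

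Per kilobase of exon, the scale on which different genes can be compared, Scnn1a made up 87.6% of the summed level of the 3 subunit genes in Stem, 91.7% in AbsPro, 95.5% in SecPDG and 86.8% in Tuft. In Enterocyte it made up 76.0% ± 5.7 (SD, n = 5), with 14.4% for Scnn1b and 9.56% for Scnn1g. The lowest Scnn1a share outside EEC was that of Enterocyte 2 (68.3%), and the 2 EEC libraries stood apart at 23.4% and 93.8%. Scnn1g made up 0.113% of the sum in SecPDG, where the alpha subunit was highest. The sum itself was 115 ± 24.0 (SD, n = 3) per kilobase in Stem, 1325 ± 467 (n = 4) in SecPDG, 719.7 ± 107 (n = 5) in Tuft and 662 ± 75.6 (n = 5) in Enterocyte. No test was run on the shares.

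**Figure D2:**
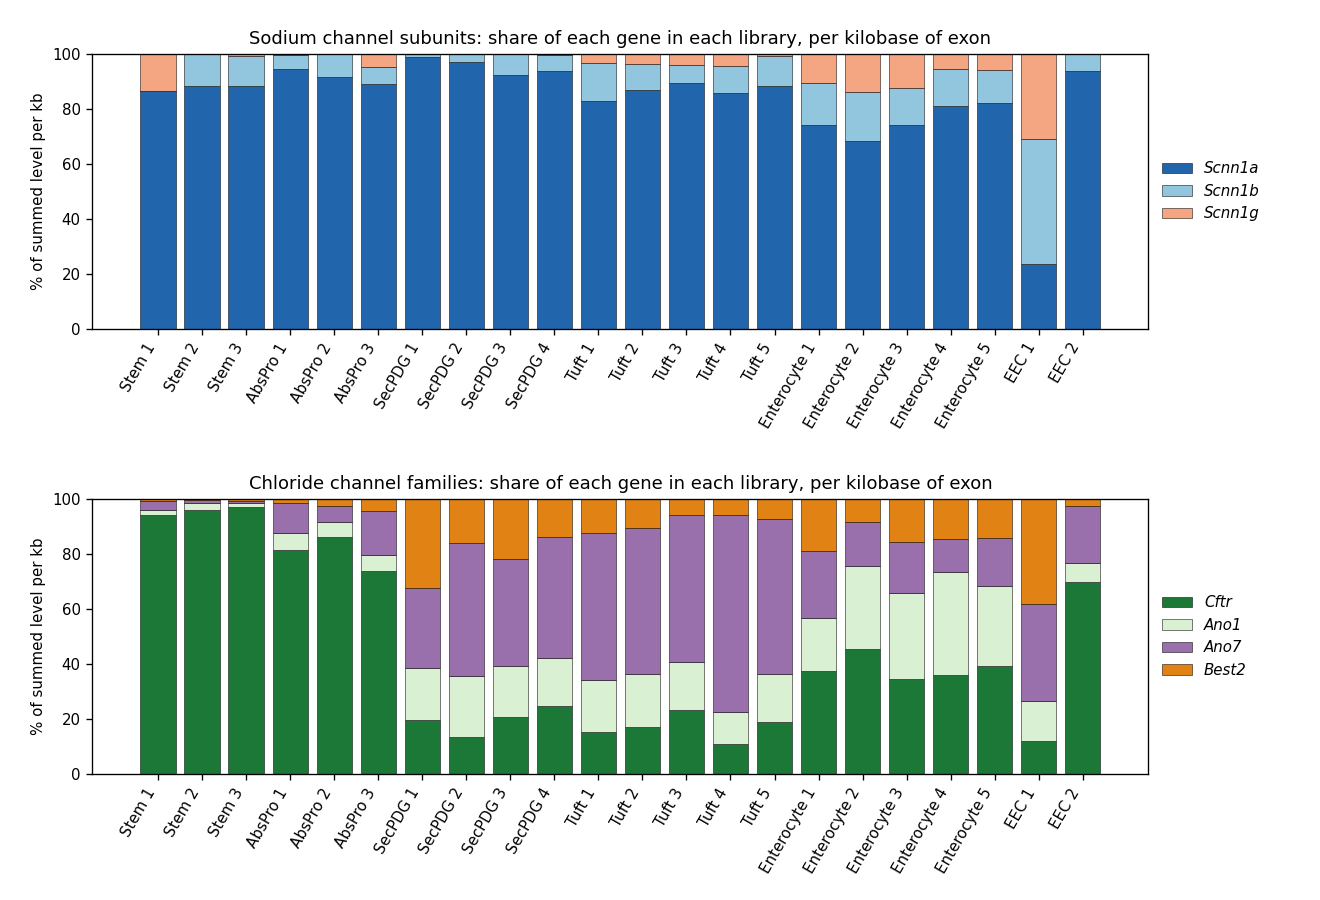
Share of each gene (y axis, % of the level per kilobase of exon summed over the set) in each of the 22 libraries (x axis), for the 3 sodium channel subunits (upper plot) and the 4 genes of chloride channel families (lower plot). Scnn1a takes between 68.3% and 99.05% of its set outside EEC, and Cftr takes 95.9% of its set on average in Stem against 17.1% in Tuft.

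The 5 acid-sensing channels, which are relatives of the epithelial sodium channel found mainly in neurons, and the gastric pump genes Atp4a and Atp4b give a scale for these low levels. Their median was 3.11 normalized counts per kilobase in Stem, 1.86 in SecPDG, 15.8 in Tuft, 22.8 in Enterocyte and 54.8 in EEC. Scnn1b, at 94.4, and Scnn1g, at 62.1, lay above the highest of the 7 in Enterocyte (36.4). In Tuft, Scnn1b (72.2) was above the highest (21.1) and Scnn1g (22.4) was close to it. In EEC both (57.5 and 30.7) were under the highest of them (94.7), and in Stem both (7.72 and 6.62) were under 18.1. Atp12a (78.0), Best2 (66.4), Ano7 (92.2) and Ano1 (35.4) were likewise under 94.7 in EEC. Only Scnn1a (210), Nr3c2 (164) and Cftr (137) lay above it there. Among the acid-sensing channels 1 of 5 passed the test against Stem, Asic2, which was higher in Tuft (4.68), Enterocyte (5.23) and EEC (6.63), with background estimates of 13.7%, 19.1% and 9.30% of its level there and 36.1% in Stem.

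**Figure D3:**
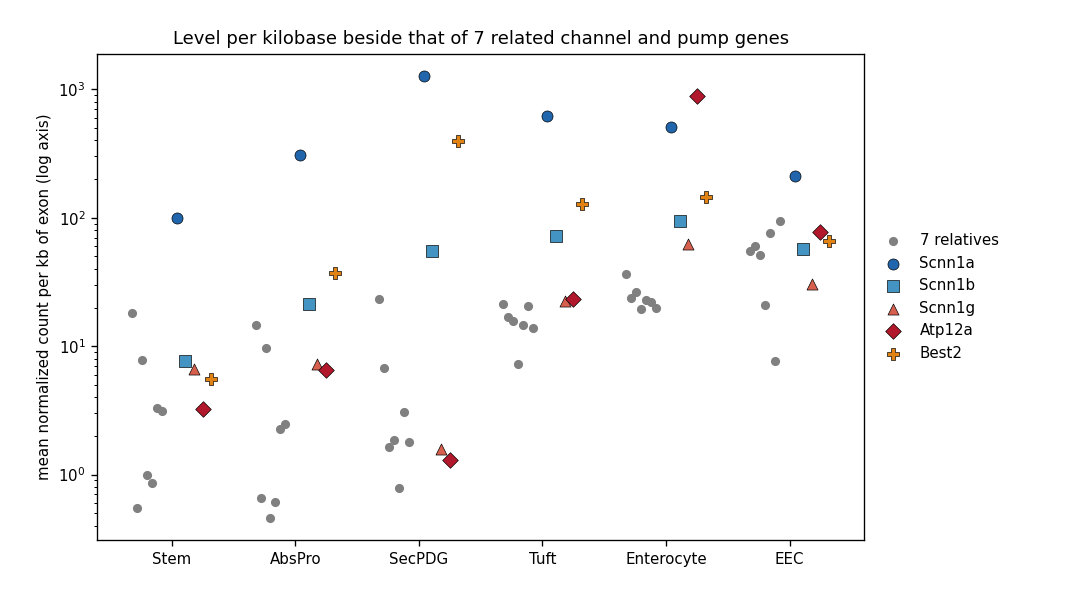
Mean normalized count per kilobase of exon (y axis, log scale) of Scnn1a, Scnn1b, Scnn1g, Atp12a and Best2 in each cell type (x axis), beside the 5 acid-sensing channels, Atp4a and Atp4b (grey points). In Enterocyte all 5 members lie above the grey points, of which the highest is 36.4, and in SecPDG Scnn1g and Atp12a lie among them.

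Nr3c2, the mineralocorticoid receptor (chromosome 8:76899442-77245012, plus strand), was measured in every cell type and varied least of the 9, with a highest mean 3.52 times the lowest. Its normalized counts were 1066, 866 and 936 in Stem, 1825, 1740.5 and 2561 in AbsPro and 2833, 4747, 2728 and 3138 in SecPDG. They were 1739, 1880.3, 1543, 1402 and 1822 in Tuft, 2382, 2781, 1528, 3960.1 and 2701 in Enterocyte, and 524 and 1593 in EEC. All libraries of AbsPro, SecPDG, Tuft and Enterocyte lay above all of Stem, and EEC 1 lay below. Nr3c2 rose against Stem in SecPDG (1.81 ± 0.34, edgeR adjusted p = 0.00012) and Enterocyte (1.48 ± 0.33, 0.000294). AbsPro (1.09 ± 0.36, edgeR adjusted p = 0.138) and Tuft (0.81 ± 0.33, 0.0496) were not called, although both passed by DESeq2 (0.00027 and 9.56e-06), with size factors (0.00601 and 0.00049), with library totals (0.00506 and 0.00127) and with only the 2 cell types (0.00203 and 0.0028). In EEC the difference was 0.18 ± 0.41 (edgeR adjusted p = 0.748), with a 95% interval of -0.629 to 0.998. EEC was below SecPDG, with a log2 fold change of -1.63 ± 0.41 (edgeR adjusted p = 0.00109). The gene Gm10649 overlaps Nr3c2 on the opposite strand, and counting without strand cannot tell their reads apart.

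Of 15 other genes of mineralocorticoid action and its targets, 1 was higher and none lower than Stem in AbsPro (0.588% of all genes called), 1 and 1 in SecPDG (4.98%), 1 and 2 in Tuft (12.1%), 1 and 3 in Enterocyte (22.2%), and none and 2 in EEC (19.9%). The median log2 fold changes of the list (-0.03, -0.01, -0.18, -0.43 and -0.38) lay near those of all genes. Hsd11b2, the enzyme that inactivates glucocorticoids and so keeps the receptor for aldosterone, had means of 1400.1 in Stem, 5500.1 in AbsPro, 19271 in SecPDG, 5186 in Tuft, 2184 in Enterocyte and 632 in EEC. It rose against Stem in AbsPro (1.97 ± 0.45, edgeR adjusted p = 0.00907), SecPDG (3.78 ± 0.47, 1.21e-08) and Tuft (1.89 ± 0.42, 0.000674), and Enterocyte was not called. Sgk1, the kinase that aldosterone induces, had means from 639 in Tuft to 1155 in SecPDG, and Nedd4l, the ubiquitin ligase that removes the channel from the membrane, from 1034 in Stem to 1825 in EEC, both with no call against Stem. Nedd4 fell in Enterocyte (-1.78). Fkbp4, a co-chaperone of steroid receptors, fell in Enterocyte (-1.90) and EEC (-2.64), Fkbp5 fell in Tuft (-1.41), and the kinase gene Stk39 fell in EEC (-1.63).

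Proteases such as prostasin cleave the sodium channel and open it. Of 9 protease and inhibitor genes, 1 was higher than Stem in SecPDG, where 4.98% of all genes were called, 2 were lower in Enterocyte (22.2%) and 3 in EEC (19.9%), and none was called in AbsPro or Tuft (0.588% and 12.1%). Tmprss2 had means of 3982 in Stem and 17093 in SecPDG and rose there by 2.10 ± 0.45 (edgeR adjusted p = 0.000613), while it fell in EEC (-2.003). Prss8, which encodes prostasin, was at 696 in Stem and 792 in SecPDG and fell in Enterocyte (-1.07, to 329) and EEC (-1.56). Tmprss4 fell in the same cell types (-0.995 and -1.81).

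Among small membrane proteins of the FXYD family, which regulate ion transport, Fxyd3 had means of 54.0 in Stem, 573 in SecPDG, 369 in Tuft and 417 in EEC. It rose against Stem in SecPDG (3.40), Tuft (2.80) and EEC (3.00), and Fxyd5 rose in EEC (4.72), where its mean was 701.

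Cftr, the chloride and bicarbonate channel of the crypt (chromosome 6:18170687-18322768, plus strand), was the only member highest in Stem by its mean. Stem had 7434, 9003 and 10645 normalized counts, against 8171, 6649 and 8420.1 in AbsPro and 2911, 2319.9, 2573 and 3285 in SecPDG. They were 2005, 1603, 2229.6, 1335 and 2773 in Tuft, 2014, 2680.1, 1515, 4882 and 3967 in Enterocyte, and 302 and 1824 in EEC. Every Stem and AbsPro library lay above every library of the other 4 cell types. Against Stem, Cftr fell in SecPDG (-1.70 ± 0.37, edgeR adjusted p = 0.000988), Tuft (-2.18 ± 0.35, 4.26e-06), Enterocyte (-1.58 ± 0.35, 0.000256) and EEC (-3.04 ± 0.52, 5.53e-06). AbsPro against Stem was -0.22 ± 0.40 (edgeR adjusted p = 0.996), with a 95% interval of -0.996 to 0.554. Against AbsPro it fell in SecPDG (-1.48 ± 0.37, edgeR adjusted p = 0.00621), Enterocyte (-1.36 ± 0.35, 0.002), Tuft (-1.957 ± 0.35, 3.84e-05) and EEC (-2.82 ± 0.52, 2.34e-05). The call of SecPDG against AbsPro was lost on leaving out any 1 of the 7 libraries, AbsPro 1 to 3 and SecPDG 1 to 4, with log2 fold changes of -1.58 to -1.28 and adjusted p of 0.0117 to 0.0501, and by the edgeR 3 method (0.0362). The call of Enterocyte against AbsPro was lost when the background estimate was taken off the counts (-0.95, edgeR adjusted p = 0.0134) and by the edgeR 3 method (0.0149), and that of EEC against AbsPro with only the 2 cell types (0.011). The gap of AbsPro to Enterocyte was the only one between neighbours in the order that was called, and with library totals Enterocyte was also called above SecPDG (0.70, edgeR adjusted p = 0.00687). Gm15592 overlaps Cftr on the opposite strand.

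Of 10 genes of basolateral chloride loading and potassium exit, none was called in AbsPro, 1 was higher and 4 lower than Stem in SecPDG, 1 and 5 in Tuft, 1 and 4 in Enterocyte, and 1 and 5 in EEC. The shares of all genes called were 0.588%, 4.98%, 12.1%, 22.2% and 19.9% in the same order. Slc12a2, the cotransporter that loads chloride, had means of 29742 in Stem, 13756 in AbsPro, 26089.8 in SecPDG and 17097 in Tuft. It fell in Enterocyte to 3775 (-2.98 ± 0.44, edgeR adjusted p = 5.04e-07) and in EEC to 702 (-5.47 ± 0.75, 4.73e-08). Kcnq1 and its partner Kcne3, the potassium channel that opens with cyclic AMP, fell in SecPDG (-1.957 and -1.41), Tuft (-1.998 and -1.86), Enterocyte (-2.60 and -1.80) and EEC (-2.52 and -4.22). Kcnn4, a potassium channel that opens with calcium, fell in Enterocyte (-1.95) and EEC (-3.32). Kcnma1, the large-conductance potassium channel, ran the other way, from 119.7 in Stem to 3585 in SecPDG (4.92 ± 0.44, edgeR adjusted p = 1.26e-12), and rose also in Tuft (4.44), Enterocyte (2.49) and EEC (2.11). The chloride channel Clcn2 fell in SecPDG (-2.09) and Tuft (-1.27), and Kcnk5 in Tuft (-1.39).

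Of 11 partners of Cftr, 1 was higher than Stem in AbsPro, 1 higher and 2 lower in SecPDG and likewise in Tuft, and 2 higher and 1 lower in Enterocyte and likewise in EEC, beside 0.588%, 4.98%, 12.1%, 22.2% and 19.9% of all genes. Slc9a3r1, a scaffold protein that binds Cftr, had means of 1642 to 2791 with no call against Stem. Its relative Slc9a3r2 rose from 55.4 in Stem to 988 in SecPDG (4.15 ± 0.44, edgeR adjusted p = 1.28e-10) and 859 in Tuft (3.96 ± 0.43, 2.05e-10). Prkg2, a kinase that acts on Cftr, fell in the same cell types (-2.33 and -1.47). Slc26a3, the chloride and bicarbonate exchanger of absorptive cells and 1 of the enterocyte markers used here, rose in AbsPro (2.24), Enterocyte (2.76) and EEC (2.11) and fell in SecPDG (-3.68) and Tuft (-2.51). Stx1a, a vesicle fusion protein that binds Cftr, rose in EEC (4.39).

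Ano1, a chloride channel that opens with calcium (chromosome 7:144588549-144751974, minus strand), was high in SecPDG, Tuft and Enterocyte. Its normalized counts were 125, 174 and 107 in Stem, 501, 325 and 514 in AbsPro and 2277, 3143, 1882 and 1907 in SecPDG. They were 1981, 1464, 1332, 1185 and 2118 in Tuft, 829.2, 1436, 1110.2, 4119 and 2387 in Enterocyte, and 296 and 146 in EEC. All SecPDG, Tuft and Enterocyte libraries lay above all of AbsPro, and all of AbsPro above all of Stem. It rose against Stem in SecPDG (4.08 ± 0.44, edgeR adjusted p = 3.02e-10), Tuft (3.57 ± 0.43, 4.03e-09) and Enterocyte (3.86 ± 0.44, 6.46e-10). AbsPro (1.71 ± 0.47, edgeR adjusted p = 0.0494) and EEC (0.64 ± 0.63, 0.415) were not called. DESeq2 called both, AbsPro at 1.68 (adjusted p = 0.00106) and EEC at 1.62 (0.000909), and AbsPro was also called by edgeR with only the 2 cell types (adjusted p = 0.00376). EEC was below SecPDG (-3.44 ± 0.54), Tuft (-2.94 ± 0.53) and Enterocyte (-3.23 ± 0.54), with edgeR adjusted p of 1.17e-06, 3.63e-05 and 9.9e-06, the last lost with only the 2 cell types (0.0138). SecPDG, Enterocyte and Tuft followed each other in the order without a call between neighbours, and Tuft was above AbsPro by 1.86 (0.000242, edgeR). Ano1 and Kit also mark interstitial cells of Cajal, which the Epcam gate should remove. The 3 other markers of those cells summed to 2376 to 11065 in Enterocyte, 2184 to 4094 in AbsPro and 363 to 1181 in SecPDG. Nearly all of it was Thbs4, and Etv1 and Prkcq were at most 159 and 177 in any Enterocyte library. The sum was highest in Enterocyte 4, the library highest in Ano1. That library also had the lowest stromal (412), endothelial (297) and muscle (282) sums of the Enterocyte libraries. The part of such cells in the level was not tested.

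Ano7, a relative of Ano1 best known from the prostate (chromosome 1:93373930-93404303, plus strand), was the 1 member called in AbsPro and, per kilobase, the highest of the chloride channel genes in Tuft. The libraries held 132, 60.8 and 57.3 normalized counts in Stem, 561, 234 and 935 in AbsPro and 2214, 4314, 2475 and 2998 in SecPDG. They were 3552, 2569, 2613, 4543 and 4265 in Tuft, 673, 486, 423, 827 and 901 in Enterocyte, and 456 and 279 in EEC. Stem lay below every other library, and SecPDG and Tuft lay above all the others. Against Stem it rose in AbsPro (2.80 ± 0.49, edgeR adjusted p = 0.000256), SecPDG (5.19 ± 0.46, 1.26e-12), Tuft (5.42 ± 0.46, 4.51e-14), Enterocyte (3.01 ± 0.46, 8.38e-07) and EEC (2.13 ± 0.59, 0.0026). The EEC call was lost with only the 2 cell types (2.43, edgeR adjusted p = 0.0315) and was the only 1 of the 5 lost on leaving out a library, without Stem 3 (1.78, edgeR adjusted p = 0.0109) or EEC 1 (1.60, 0.0342). Enterocyte was below SecPDG by 4.54-fold (edgeR adjusted p = 1.8e-07) and below Tuft by 5.33-fold (8.67e-09). Tuft and SecPDG differed by 0.23 ± 0.29 (edgeR adjusted p = 0.568), with a 95% interval of -0.340 to 0.804. Among the goblet markers, Muc2 overlapped between Tuft (377878 to 970170) and SecPDG (357973 to 1142460). Agr2 (33286 to 102306 against 51203.5 to 91565), Retnlb (5895 to 44530 against 18147.5 to 64904) and Clca1 (15659 to 211307 against 53997 to 856191) overlapped too. Spdef was lower in Tuft (2913 to 5750.1 against 6024 to 7246), and so were Fcgbp (50211 to 175122 against 205832 to 912524), Tff3 (828.7 to 4024 against 5093 to 11236) and Zg16 (549.8 to 1316 against 4922 to 6063). The part of goblet cells in the Tuft level was not tested.

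Best2, a bestrophin anion channel known from goblet cells of the colon (chromosome 8:85007202-85014531, minus strand), had the largest fold change from Stem among the genes of chloride channel families. Its normalized counts were 13.8, 7.04 and 16.2 in Stem, 44.5, 56.1 and 144 in AbsPro and 1378, 799, 774 and 529.8 in SecPDG. They were 461, 285, 159, 202 and 307 in Tuft, 291, 138, 194, 561 and 411 in Enterocyte, and 275 and 19.4 in EEC. SecPDG was higher than all of Tuft, and its lowest library lay within the range of Enterocyte. Against Stem it rose in SecPDG (6.15 ± 0.62, edgeR adjusted p = 2.71e-11), Tuft (4.53 ± 0.68, 8.55e-07), Enterocyte (4.69 ± 0.68, 2.5e-07) and EEC (3.39 ± 0.98, 0.00386). AbsPro, at 2.67 ± 0.88, was not called (edgeR adjusted p = 0.147), although its libraries lay above all of Stem and DESeq2 called it (adjusted p = 0.00786). The EEC call was lost with only the 2 cell types (edgeR adjusted p = 0.0551) and without Stem 2 (3.00, edgeR adjusted p = 0.023), Stem 3 (3.51, 0.0137) or EEC 1 (0.51, 0.975). SecPDG was above AbsPro by 3.47 ± 0.47 (edgeR adjusted p = 2e-07), above Enterocyte by 2.74-fold (0.00054), above Tuft by 3.07-fold (0.00113) and above EEC by 6.78-fold (0.000111). The difference from Tuft was lost without SecPDG 1 (-1.30, edgeR adjusted p = 0.0272), and that from EEC without EEC 2 (-1.67, 0.019). The difference from Tuft was lost also with library totals (-1.39, edgeR adjusted p = 0.0147), by the edgeR 3 method (0.0475) and by DESeq2 (-1.47, 0.0395). That from EEC was lost also with only the 2 cell types (-2.71, edgeR adjusted p = 0.0158) and by DESeq2 (-1.50, 0.0709). The difference from Enterocyte was lost with library totals, the edgeR 3 method and DESeq2 (adjusted p of 0.018 to 0.0999) and with size factors (-1.02, edgeR adjusted p = 0.0164). Enterocyte was above AbsPro (2.02, 0.00129, edgeR), except by the edgeR 3 method (0.0154) and without AbsPro 1 (1.48, 0.034) or AbsPro 2 (1.83, 0.014). Tuft was above AbsPro too (1.86, 0.00597, edgeR), except by the edgeR 3 method (0.0332) and without AbsPro 1, AbsPro 2, Tuft 1 or Tuft 2 (adjusted p of 0.0108 to 0.0783).

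Per kilobase of exon, Cftr made up 95.9% ± 1.57 (SD, n = 3) of the summed level of the 4 genes of chloride channel families in Stem, 80.5% ± 6.21 (n = 3) in AbsPro, 19.5% ± 4.68 (n = 4) in SecPDG, 17.1% ± 4.6 (n = 5) in Tuft and 38.5% ± 4.27 (n = 5) in Enterocyte. In SecPDG the other 3 genes took 39.9% (Ano7), 21.04% (Best2) and 19.5% (Ano1). Ano7 took 57.5% in Tuft and Ano1 29.6% in Enterocyte. The 2 EEC libraries differed, with Cftr at 11.98% in EEC 1 and 69.7% in EEC 2. The summed level itself was 1211 ± 197 (SD, n = 3) per kilobase in Stem, 1871 ± 281 (n = 4) in SecPDG, 1523 ± 299 (n = 5) in Tuft and 1014 ± 498 (n = 5) in Enterocyte.

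Of the 10 other anoctamins and bestrophins, none was called in AbsPro, 2 were lower than Stem in SecPDG, 3 higher and 1 lower in Tuft, and 4 higher and 1 lower in Enterocyte and likewise in EEC, beside 0.588%, 4.98%, 12.1%, 22.2% and 19.9% of all genes. Ano6, which scrambles membrane lipids, fell in SecPDG (-1.41) and Enterocyte (-0.93) and had its highest mean in Tuft (2476), where it was not called. Ano2, known from olfactory neurons, rose in Enterocyte (3.96) and EEC (4.65), and Ano5, known from muscle, and Best3 rose in Tuft (4.22 and 4.14), Enterocyte (5.72 and 4.42) and EEC (6.48 and 5.49). These 3 had means of at most 300.1 anywhere, and the background estimate was 5.90% to 29.8% of their levels where they rose.

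Atp12a, the alpha subunit of the colonic proton and potassium pump (chromosome 14:56365068-56388550, plus strand), was set apart in Enterocyte more than any other member in any cell type. Normalized counts were 20.7, 9.6 and 8.76 in Stem, 16.2, 40.7 and 21.6 in AbsPro and 1.89, 16.2, 0.842 and 1.959 in SecPDG. They were 61.0, 97.2, 209.8, 87.4 and 15.1 in Tuft, 3273, 3641, 4377, 3827 and 2739 in Enterocyte, and 470.0 and 157 in EEC. The lowest Enterocyte library was above the highest library of any other cell type, and both EEC libraries were above all of Stem, AbsPro and SecPDG, while Tuft 5 lay within the range of Stem. Against Stem it rose in Enterocyte by 279.7-fold (8.13 ± 0.53, edgeR adjusted p = 1.51e-18), in EEC by 4.53 ± 0.73 (1.39e-06) and in Tuft by 2.80 ± 0.74 (0.00368). AbsPro (1.03 ± 1.00, edgeR adjusted p = 0.913) and SecPDG (-1.49 ± 1.47, 0.723) were not called against Stem. The Tuft call was lost with library totals (edgeR adjusted p = 0.0117) and without Stem 2 (2.62, edgeR adjusted p = 0.0244), Stem 3 (2.54, 0.0255) or Tuft 3 (2.26, 0.0321). Enterocyte was above AbsPro by 7.10 ± 0.49 (edgeR adjusted p = 2.35e-17), above SecPDG by 9.61 ± 0.57 (1.04e-20), above Tuft by 5.33 ± 0.35 (1.96e-19) and above EEC by 12.1-fold (6.58e-09). SecPDG rests on 1 to 13 reads a library, so its folds are uncertain, and the difference of Tuft from SecPDG (4.28 ± 0.94, edgeR adjusted p = 0.00152) was lost without SecPDG 1, 3 or 4 or Tuft 3 (3.75 to 4.04, adjusted p of 0.0102 to 0.016). Without SecPDG 2, which holds 13 of those reads, the fitted difference of Enterocyte from SecPDG was 10.99 and that of Tuft from SecPDG 5.58. EEC was above AbsPro by 3.51 ± 0.67 (edgeR adjusted p = 3.55e-05), a call lost without EEC 1 (2.40, 0.0169) or with only the 2 cell types (0.0141). The gastric pump genes Atp4a and Atp4b were called in none of the 5 comparisons with Stem, with means of at most 83.7 and 143, and Gm10873 overlaps Atp12a on the opposite strand.

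The 2 EEC libraries differed in most members, and several differences from EEC rest on which of them is used. In EEC 1 the background estimate was 20.7% of the Scnn1a level, 24.7% of Cftr and 20.2% of Ano1, and 7.75% to 15.7% of the other members. With both, EEC was below Tuft in Scnn1a with a log2 fold change of -1.51 ± 0.43 (edgeR adjusted p = 0.00877), a call lost without EEC 1 (-0.90, 0.0829) or without Tuft 1, 2, 3 or 5 (adjusted p of 0.0109 to 0.0166), by the edgeR 3 method (0.0303) and with only the 2 cell types (0.0711). Without EEC 2, EEC was also called lower than Enterocyte in Scnn1a (-3.45), Cftr (-3.32) and Nr3c2 (-2.35), lower than Tuft in Cftr (-2.73) and Nr3c2 (-1.68), lower than AbsPro in Scnn1a (-2.72) and Nr3c2 (-1.962), and lower than SecPDG in Cftr (-3.20). On the same libraries EEC was called higher in Scnn1g than SecPDG (5.32) and AbsPro (3.23), and higher in Atp12a than Tuft (2.40), the last also without Tuft 3 (2.27). Without EEC 1, EEC was called lower in Best2 than Tuft (-4.01) and Enterocyte (-4.00), and without SecPDG 2 it was called lower in Cftr than SecPDG (-1.56). Other differences from EEC moved in size. Scnn1a against SecPDG was -1.94 without EEC 1 and -4.77 without EEC 2, and Atp12a against Stem 3.45 and 5.20. Without EEC 2, Cftr was -4.90 against Stem and Nr3c2 -2.68 against SecPDG, and without EEC 1, Ano1 was -4.18 and Best2 -5.72 against SecPDG. A single EEC library was then assumed to vary like the other cell types. Of the 18 called differences of EEC, 9 moved by more than 1.5-fold with size factors and 11 by DESeq2, each time toward a higher EEC level.

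**Figure D4:**
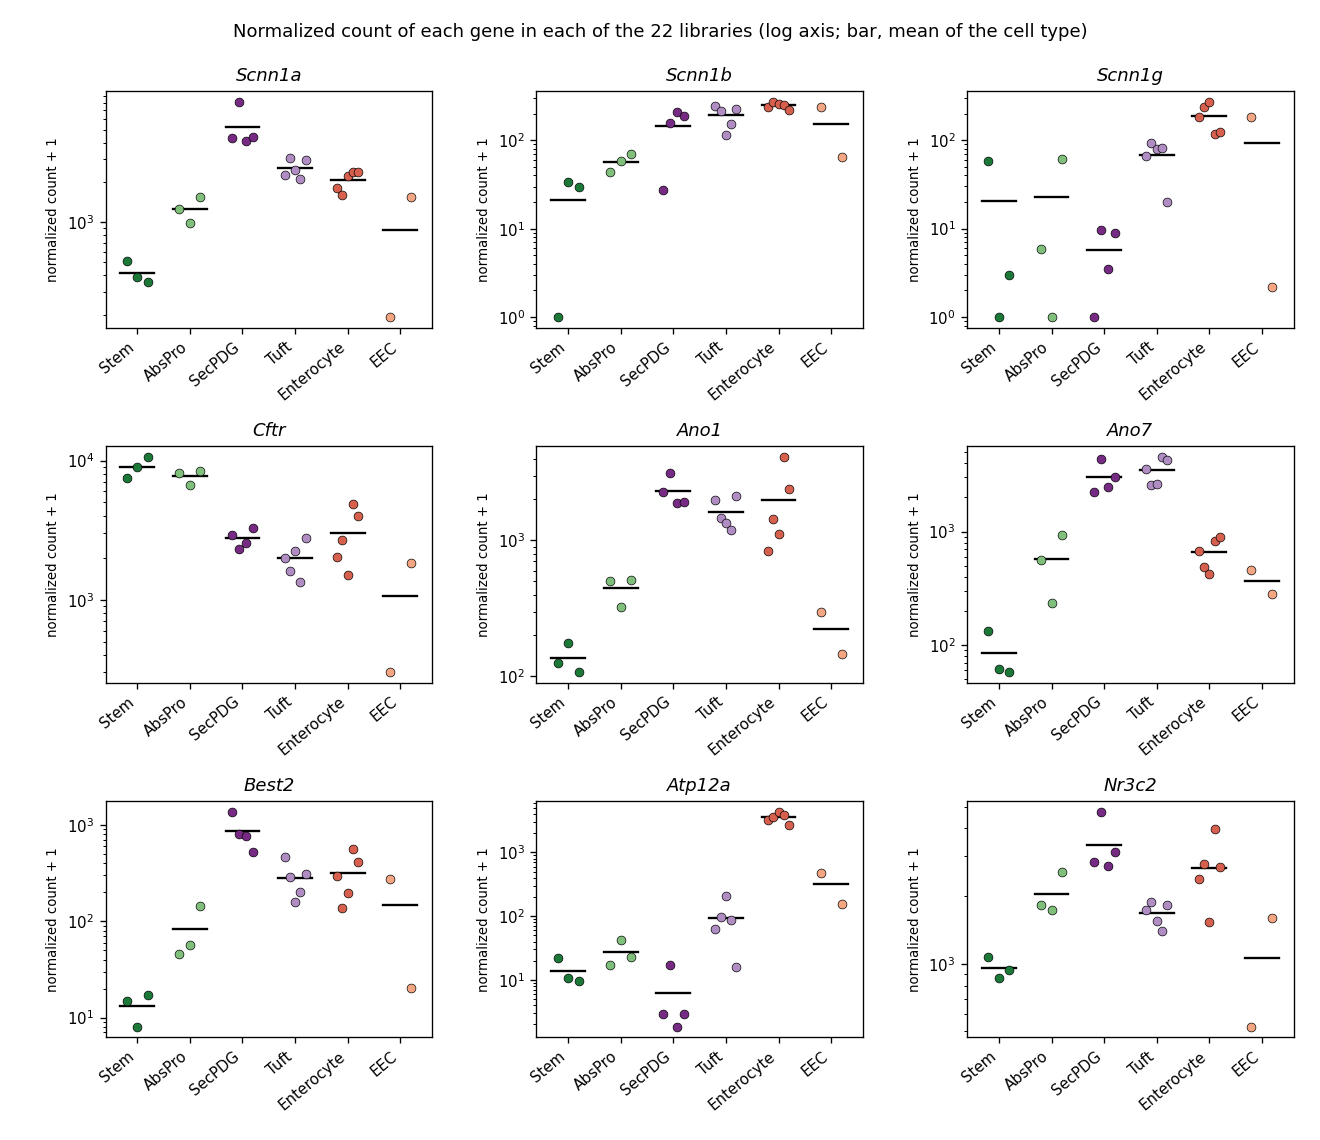
Normalized count plus 1 (y axis, log scale) of each of the 9 genes in each of the 22 libraries (points), by cell type (x axis), with the mean of each cell type as a bar. Cftr falls from means of 9027 in Stem and 7747 in AbsPro to 1063 to 3011 elsewhere, and Atp12a stands at 2739 to 4377 in Enterocyte against at most 470.0 in any other library.

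**Figure D5:**
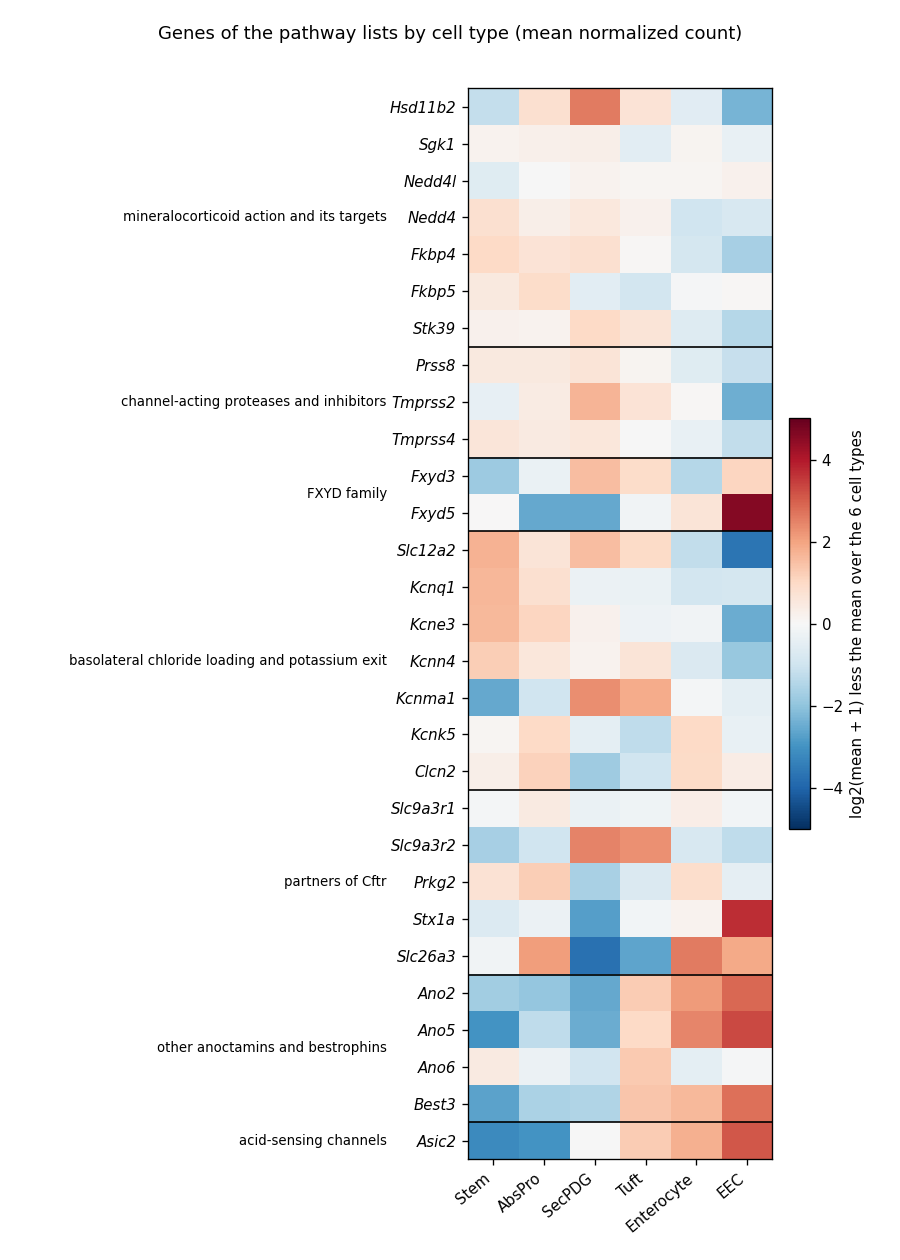
Named genes of the pathway lists (rows, grouped by list) in the 6 cell types (columns). The colour is the log2 of the mean normalized count plus 1, less the mean over the 6 cell types, with red higher and blue lower. Slc12a2, Kcnq1 and Kcne3 are highest in Stem, and Kcnma1 and Slc9a3r2 are highest in SecPDG.

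The deposited tables of transcript ends give, for Scnn1a, Cftr and Nr3c2, the share of transcripts that use the distal of the sites where the RNA ends. None of their shares was called at a limma adjusted p under 0.05, where 0% of all sites tested were called in AbsPro against Stem, 0.0408% in Enterocyte, 0.0237% in SecPDG and 0.0614% in Tuft. Scnn1a, with its proximal site at position 125343900 of chromosome 6, had distal shares of 0.19 and 0.27 in 2 Stem libraries and 0.84, 0.56 and 0.88 in AbsPro. Those ranges did not overlap, and the difference on the log2 ratio scale was 3.53 ± 0.90 (SE) with a limma p of 0.0172 before and 0.922 after adjustment over 4976 sites, at which 196 had an unadjusted p under 0.05. With the proximal site at 125343927, the shares were 0.2 and 0.26 in Stem against 0.44 to 1 in Enterocyte (4.31 ± 1.72, limma p of 0.0458 and 0.563 adjusted, over 2449 sites). In SecPDG and Tuft, where the tables place the site at 125344422 and 125344424, only 1 Stem library has a value, 0.45 and 0.44, against 0.45 to 0.59 in SecPDG and 0.53 to 1 in Tuft, with no test. The third Stem value is missing in the first 2 tables, and Stem had the lowest mean count of Scnn1a among the cell types.

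For Nr3c2 (proximal site 77242576 on chromosome 8) the distal share was 0.14 to 0.49 in Stem, 0.33 to 0.77 in AbsPro (limma adjusted p = 0.922), 0.35 to 0.62 in SecPDG (0.847) and 0.22 to 0.38 in Enterocyte (0.915), so that all ranges overlapped that of Stem. For Cftr (proximal site 18321319 on chromosome 6) it was 0.25 to 0.29 in Stem, 0.23 to 0.36 in AbsPro (limma adjusted p = 0.961) and 0.17 to 0.3 in Tuft (0.86).

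Exons that are skipped in part of the transcripts were tested in Cftr alone among the 9. None of its exon events was called, and 0% of all events were called by edgeR in each of the 5 comparisons with Stem. An unadjusted p under 0.05 was found for 3 of 4759 events in AbsPro, 38 of 1973 in EEC and 101 of 5721 in Enterocyte. In SecPDG it was 38 of 5958 and in Tuft 82 of 6435. These are fewer than chance alone gives, so this test was too strict to tell whether an exon changed. The study's own rMATS test reported skipped exon changes, the most in AbsPro against Stem. The limma test of inclusion called 9 events in EEC and 59 in Enterocyte, none of them in Cftr, whose lowest limma adjusted p was 0.0624. The exon of 111 bases at 18198122-18198232 of chromosome 6 had 1208 inclusion and 0 skipping counts over the Stem libraries and 811 and 11 over AbsPro, where its lowest inclusion was 92.2%. The exon of 252 bases at 18299683-18299934 had 1228 and 65 in Stem, where 1 library stood at 66.2% inclusion, and 889 and 11 in AbsPro. An exon of 90 bases at 18220621-18220710 rested on 27 inclusion and 2 skipping counts in Enterocyte, and an exon of 156 bases at 18305832-18305987 had 408 and 2 in SecPDG.

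Some members ran together across the 22 libraries. By Pearson correlation of log2 normalized counts, given as a description since libraries of 1 cell type share their sort, Ano1 and Best2 had r = 0.895, Scnn1a and Nr3c2 0.856, Scnn1a and Ano1 0.831, Ano1 and Ano7 0.827, and Scnn1g and Atp12a 0.746. The 3 subunits of the sodium channel were less alike, with 0.431 for Scnn1a and Scnn1b, 0.388 for Scnn1b and Scnn1g and 0.0337 for Scnn1a and Scnn1g. Cftr had its lowest correlation with Scnn1b (-0.546). With the summed goblet markers the correlation over the 22 libraries was 0.934 for Ano7, 0.925 for Scnn1a, 0.910 for Ano1, 0.833 for Best2, 0.724 for Nr3c2, 0.565 for Scnn1b, 0.253 for Scnn1g, -0.00707 for Atp12a and -0.288 for Cftr, and the part of goblet cells in these levels was not tested.

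Over 13179 genes with a mean of at least 50 normalized counts, the genes most like each member were found by the same correlation. Scnn1a was nearest to Tmc5 (0.948), Fcgbp (0.936), a mucus protein of goblet cells and 1 of the goblet markers used here, and Pck1 (0.930), an enzyme of glucose synthesis. Scnn1b was nearest to Mx1 (0.912), Cdc42ep3 (0.904) and Nudt18 (0.874), and Scnn1g to Gm8221 (0.971), Ccdc155 (0.961) and Cacna2d3 (0.957). By Spearman rank correlation Nudt18 stood only at place 2201 for Scnn1b (rho = 0.474). Over the 6 cell type means the 3 genes named for Scnn1g stood at places 42, 297 and 357. Nearest to Cftr were Trim2 (0.978), Plcb3 (0.968) and Sipa1l1 (0.966). For Ano1 they were Atp2c2 (0.944), a calcium and manganese pump of the secretory pathway, Mptx1 (0.929) and Spats2l (0.896), and Atp2c2 (0.895) also followed Gpr20 (0.909) and Slc41a2 (0.903) for Best2. Ano7 was nearest to Hgfac (0.968), Gm1123 (0.960) and Slc17a9 (0.959). The genes most like Atp12a were Lama3 (0.954), Spink1 (0.926) and the phosphate transporter Slc34a2 (0.924), and Nr3c2 was nearest to Muc13 (0.946), a mucin of the cell membrane, Susd6 (0.910) and Plcl2 (0.908).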

How the data were processed

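RNA from 22 sorted libraries was made with a low-input kit and sequenced in pairs. The counts per gene were deposited by the authors, who aligned reads with STAR 2.5.2a to mm10 and counted them with HTSeq 0.6.1p1 without strand, one table per library, with no normalization. The authors also deposited DaPars tables, in which the share of distal ends is a fraction per library, and rMATS tables of inclusion and skipping counts of exons, both against Stem. These tables do not name their libraries. Their columns of comparisons, and the MAJIQ tables, which hold such comparisons, were not used.

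Counts of 22781 of 24421 genes that passed filterByExpr were fitted in one edgeR 4.0.16 quasi-likelihood model over the 22 libraries, with TMM scaling and cell type as the term (R 4.3.3). The 5 entries that name no gene, which held 53.9% to 91.6% of the reads in a table, were left out. Within each cell type, no pair of libraries held identical counts or counts within sampling noise. Pairs across cell types were not checked. The study's own test, DESeq2 (1.42.0 here), was an alternative, as were other scalings, filters and samples. The edgeR 3 method and the removal of background were added after the data were seen. Distal shares were tested with limma 3.58.1 on log2 ratios with a pseudocount of 0.01 and at least 2 values per cell type, and exons with at least 20 counts by edgeR, both at an adjusted p under 0.05. Levels per kilobase used exon lengths of GRCm38, the same assembly as mm10. The fit was tested on simulated counts of 21165 genes for Enterocyte against Stem, where it recovered 2.99% of 2-fold, 95.5% of 4-fold and 97.0% of 8-fold changes with 0 false calls. Figures were drawn with matplotlib 3.10.9.

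The 9 genes and the lists were chosen with earlier results of these data known. All 9 genes were named, with the 3 other genes most correlated with each over the 22 libraries. From the lists, Sgk1, Nedd4l, Hsd11b2, Prss8, Slc12a2, Kcnq1, Kcne3 and Slc9a3r1 were always named, with up to 4 genes a list among those called against Stem, by the ratio of highest to lowest mean. Atp4a and Atp4b were named outside this rule, as the 2 genes of their list. Some genes that the rule would name, and the counts of the list that holds them, are not reported here.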

Additional observations from a re-analysis of the deposited data

Results flagged for a closer look

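Of 27 groups of 4 or 5 libraries, each 1 member in 1 cell type, 2 held a library far from the others, where chance alone gives about 1 in 20. Scnn1a in SecPDG 2 was at 8103 normalized counts against 4086 to 4443 in the other 3 libraries, a gap of 0.911 of the range. Atp12a in SecPDG 2 was at 16.2 against 0.842 to 1.959 in the others (0.927 of the range), on 13 reads. The same library had the highest sum of goblet markers (3071540), and the part of that in either value was not tested.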

How the results depend on the processing

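Of 135 differences (9 genes in 15 comparisons), 67 were called, and none of these changed direction under any alternative run. Of the 67, 22 lost the call under at least 1 of the alternatives run and 33 of the others gained it. The edgeR 3 method lost 13 calls, comparing only the 2 cell types 8, library totals 6 and the DESeq2 Wald test 6, while size factors and library totals gained 15 each and DESeq2 20. For AbsPro against Stem (1 member called), the count was 3 at an adjusted p under 0.05, with size factors and with library totals, 4 with only the 2 cell types and 5 by DESeq2. For EEC against Stem (5) it was 2 with only the 2 cell types, and 2 to 6 on leaving out each library. For Enterocyte against AbsPro (6) it was 2 by the edgeR 3 method and 3 to 6 on leaving out each library, lowest without AbsPro 1. For Tuft against SecPDG (2) it was 5 at an adjusted p under 0.05, 4 without the low-count filter or with only the 2 cell types, 1 with library totals or the edgeR 3 method, and 0 to 3 on leaving out each library, lowest without SecPDG 1. The cause of these shifts was not tested. With the replicate block, the count was 2 in AbsPro against Stem and 5 in Tuft against SecPDG, and no other of the 9 main counts moved. Deviations correlated with a median of 0.0014 (-0.393 to 0.488) over 44 pairs of libraries with the same replicate number. Over 154 pairs of different numbers the median was 0.0198 (-0.571 to 0.610). These medians show no general pairing by number, but cannot exclude a pairing of some libraries. Depth limits Scnn1g and Scnn1b, with as few as 0 reads in a Stem library, and Atp12a in SecPDG, with 1 to 13.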
